A study of Mus musculus with 68 samples.

Results

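The Slc22 and Slco genes encode transporters that carry organic anions and cations across cell membranes, among them drugs, bile acids, urate, carnitine, prostaglandins and thyroid hormones. Members were taken as the protein-coding genes of the count table whose symbol was Slc22a or Slco followed by a number. This gave 39 genes, 25 Slc22 and 14 Slco, of 56748 genes in the table. Their mRNA was measured by sequencing of polyadenylated RNA in heart, lung, kidney and liver of wild-type C57BL/6J mice, which were female and 10 weeks old, to ask whether the response to the growth factor Egf differs among organs. Mice received Egf at 1 mg/kg in phosphate-buffered saline, or saline alone (vehicle), into the retro-orbital sinus under isoflurane anaesthesia, and organs were frozen 2 h or 6 h later. A further 3 mice were untreated controls, and the labels do not say whether these were anaesthetised. Per organ, 4 libraries came from Egf mice and 3 from vehicle mice at 2 h, with the same numbers at 6 h, and 3 came from untreated mice, which makes 68 in all.

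Slc22 proteins fall by substrate into organic cation transporters, carnitine transporters and organic anion transporters. In the kidney, organic anion transporters of the basolateral membrane of the proximal tubule take up anions from the blood in exchange for dicarboxylates, and apical members reabsorb urate and other anions from the filtrate. Slco genes encode the organic anion transporting polypeptides, which in the liver take up bile acids, bilirubin conjugates and many drugs from portal blood. Members of both families carry many drugs and take part in their clearance by kidney and liver.

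The members lie close together in the genome, and 26 of 39 fell into 7 groups in which each gene was within 1000000 bases of the next (coordinates on mm39, from the deposited table). The largest held 8 Slc22 genes, chr19:7650426-8605663, from Slc22a19 through Slc22a26, Slc22a27, Slc22a28, Slc22a29 and Slc22a30 to the renal anion transporters Slc22a8 and Slc22a6. A second held 6 Slco1 genes, chr6:141470094-142268707. Neighbours in these groups had their highest levels in different organs, as given below. RefSeq held 39 promoter entries for 34 of the 39 members on GRCm38.p6, each covering 300 bases, from 250 before to 50 after the annotated start. The letters GTTAAT, which with their reverse complement ATTAAC form the palindromic binding site of the liver and kidney factor HNF1, were searched on both strands. They were present in 4 of these 39 entries and in 7.1% of all 32851 promoters of the same length. The full site, GTTAAT and ATTAAC with any single base between them, was in none of the member promoters and in 0.00913% of all. The 4 promoters with a match are printed. Their genes were found almost only in kidney (Slc22a6, Slc22a8), mainly in kidney (Slc22a29) or mainly in liver (Slco1b2). Other members found mainly in 1 of these organs, such as Slc22a12 and Slc22a13 in kidney and Slco1a1 in liver, were not among the 4. For 5 members there was no promoter entry. Capitals mark GTTAAT or its reverse complement ATTAAC, which began 56 bases before the start in Slc22a6, chr19:8617746-8618045, plus strand, 81 before in Slc22a8, chr19:8592932-8593231, plus strand, 29 before in Slc22a29, chr19:8218851-8219150, minus strand, and 66 before in Slco1b2, chr6:141629268-141629567, plus strand. A match is a description of the letters only.
Slc22a6: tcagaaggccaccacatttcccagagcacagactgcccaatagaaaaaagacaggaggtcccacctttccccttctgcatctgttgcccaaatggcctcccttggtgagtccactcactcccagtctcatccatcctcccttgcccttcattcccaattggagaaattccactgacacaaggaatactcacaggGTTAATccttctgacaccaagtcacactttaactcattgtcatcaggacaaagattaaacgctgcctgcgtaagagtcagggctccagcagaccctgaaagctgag
Slc22a8: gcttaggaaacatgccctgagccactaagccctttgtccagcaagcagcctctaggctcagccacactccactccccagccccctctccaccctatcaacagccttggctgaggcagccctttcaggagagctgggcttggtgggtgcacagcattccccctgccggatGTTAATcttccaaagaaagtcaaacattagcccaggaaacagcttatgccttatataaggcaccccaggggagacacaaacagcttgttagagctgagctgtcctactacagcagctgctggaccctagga
Slc22a29: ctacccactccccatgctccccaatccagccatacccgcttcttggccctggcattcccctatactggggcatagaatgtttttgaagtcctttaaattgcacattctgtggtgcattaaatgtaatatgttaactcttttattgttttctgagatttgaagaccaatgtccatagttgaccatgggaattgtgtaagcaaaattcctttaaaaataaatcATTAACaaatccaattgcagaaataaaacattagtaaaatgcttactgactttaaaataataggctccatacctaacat
Slco1b2: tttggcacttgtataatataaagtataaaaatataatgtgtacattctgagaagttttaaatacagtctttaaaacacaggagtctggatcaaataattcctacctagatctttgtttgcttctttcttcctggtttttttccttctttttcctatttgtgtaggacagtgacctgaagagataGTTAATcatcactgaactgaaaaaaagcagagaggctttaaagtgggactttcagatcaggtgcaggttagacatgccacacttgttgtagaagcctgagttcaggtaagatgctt

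Near-identical copies limit how well reads can be assigned. Of the 50-base words in the GENCODE transcripts of Slc22a28, 53.9% also occurred in another member, mostly Slc22a30, and the share was 34.03% for Slc22a30, 29.9% for Slc22a27, 28.7% for Slc22a29, 26.2% for Slc22a5 and 22.0% for Slc22a21. In all, 7 members shared more than 5% of their words and 24 shared none. How reads that fit several genes were counted is not given in the sources used here, so the split of reads among these members is uncertain. The bounds of Slc22a13 and Slc22a14 overlap on the same strand of chromosome 9, but their transcripts shared no 50-base word with another member. How reads within the overlap were assigned is not given either.

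Library totals ran from 13271813 to 24972005 counted reads. Each organ's own defining markers were high in all of its libraries, for example summed hepatocyte markers of 107400 to 143300 CPM (counts scaled to a library of 1000000) in liver and 16110 to 19960 CPM of proximal tubule markers in kidney. Several heart and lung libraries also carried RNA of other organs. Heart libraries held 40.98 to 16670 CPM of the 10 hepatocyte markers and 0.1507 to 2088 CPM of 7 other kidney tubule markers, and lung libraries held 5.549 to 28790 CPM and 1.001 to 251.5 CPM. Libraries were set apart where the sum of the hepatocyte markers, or of the proximal and other tubule markers together, was at least 10 times the organ's median and at least 500 CPM. These 5 were lung Egf 6 h replicate 3, heart vehicle 2 h replicate 1, heart Egf 6 h replicate 3 and heart untreated replicates 1 and 3. Heart untreated replicate 2 was not among them, although it held 770.8 CPM of the 7 other tubule markers, against a heart median of 8.863 CPM. The rule used both tubule lists together, which summed to 1768 CPM in that heart, against a heart median of 372.6 CPM. The proximal list holds Ass1, whose median was higher in liver (3847 CPM) than in kidney (2391 CPM). All 17 libraries of each organ entered its analysis. Without these 5 libraries, 0 members passed in any lung or heart comparison of the injected and untreated groups. Nothing in the labels says how libraries of a group relate beyond being separate samples, so p-values measure the spread between these samples. In comparisons between organs, that spread is pooled over the groups of all organs, not only those compared. In whole-organ RNA, fewer cells of a type and less RNA per cell cannot be told apart.

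In untreated kidney, Slc22 genes drew more reads than Slco genes: the Slc22 sum was 4908 ± 216 CPM and the Slco sum 684 ± 48.3 CPM (SD, n = 3, common scale of all organs). Such sums are not corrected for gene length and do not compare numbers of transcripts. In liver the sums were 2232 ± 417 and 2428 ± 114 CPM, in lung 150.4 ± 35.6 and 606 ± 12.3 CPM, and in heart 338 ± 90.0 and 328 ± 115 CPM. The untreated mean reached 1 CPM for 30 of the 39 members in kidney, 19 in liver, 23 in lung and 27 in heart. The untreated hearts carried 1256 to 16670 CPM of hepatocyte markers. Slc22a6 was at 0, 25.0 and 0 CPM in untreated hearts and at 0, 0 and 8.92 CPM in untreated lungs. In 3 injected hearts with little foreign RNA, described below, 11 members were at 1 CPM or more in each. The part of foreign RNA in the heart and lung sums and counts was not tested. Slco6c1 and Slco6d1, which belong to a testis-enriched subfamily, had no read in any of the 68 libraries. Slc22a16 had 1 read, Slc22a20 had 13 and Slco1c1, a thyroxine transporter of brain vessels, had 123 in all libraries together. Of members whose untreated level reached 1 CPM in some organ, 17 were highest in kidney, 10 in liver, 3 in lung and 3 in heart on the common scale. Against library totals, that scale lowered kidney minus liver by 0.849 and lung minus heart by 0.784 in log2. The organ with the highest level can therefore depend on the scaling.

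**Figure D1:**
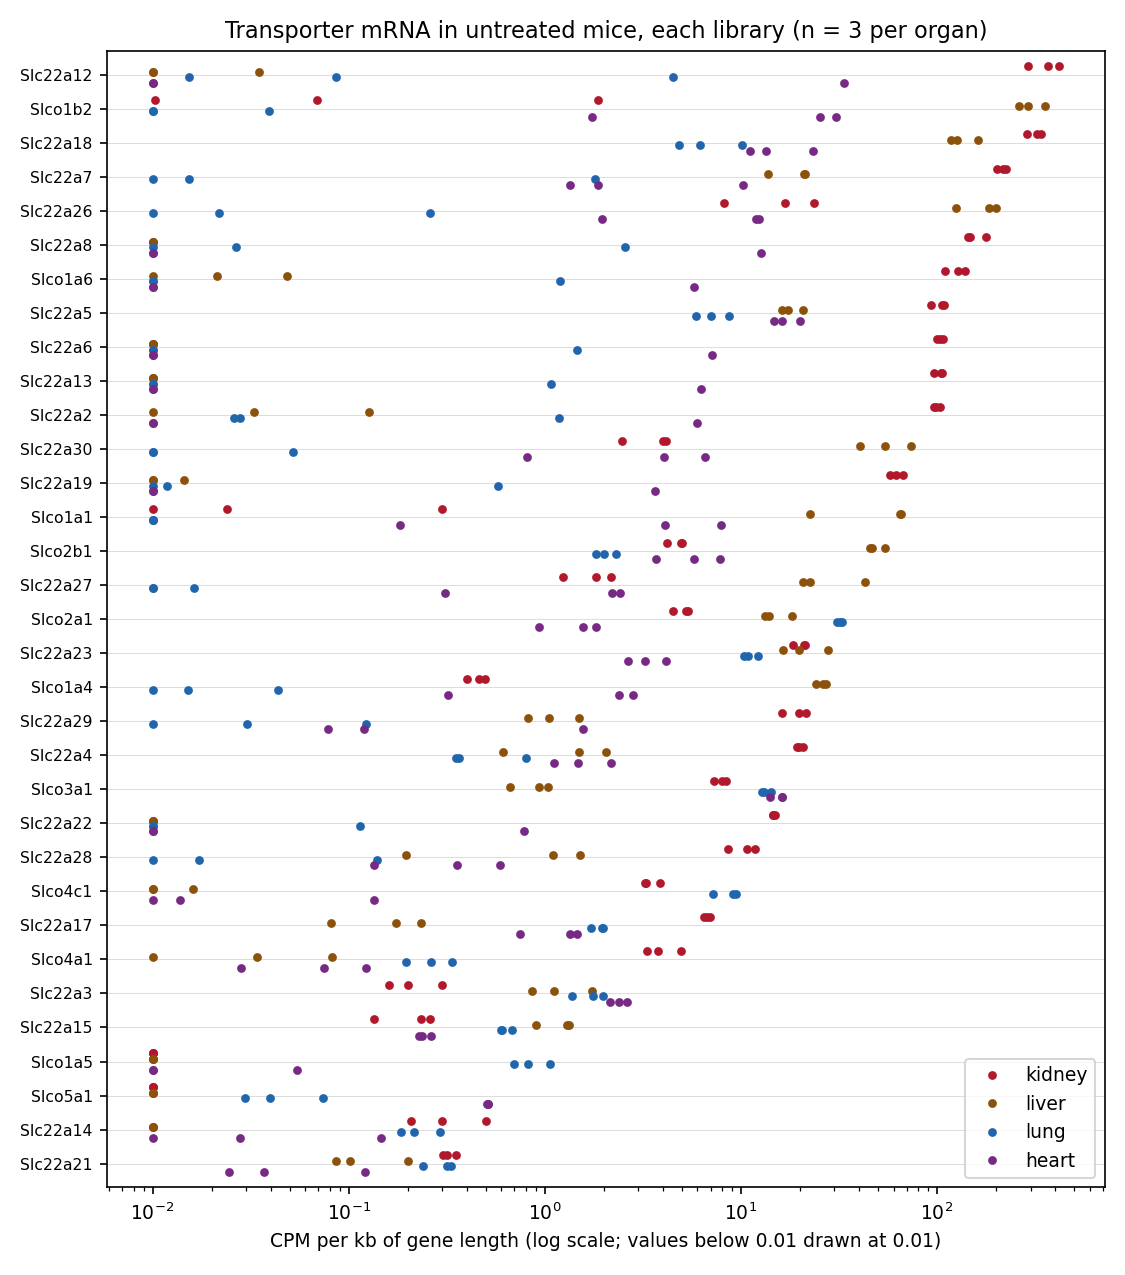
Level of the members reported by name with at least 1 CPM in a library of untreated mice, in CPM per kb of gene length on the common scale (log axis, values below 0.01 drawn at 0.01). Each point is a library (n = 3 per organ); kidney points of Slc22a6, Slc22a8, Slc22a12 and Slc22a13 stand alone at the right, with liver points at the left edge, and heart points of Slco1b2 lie between 1.75 and 30.6 CPM per kb.

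Levels of different genes were compared per kb of gene length. The highest member in untreated kidney was Slc22a12, the urate exchanger of the apical proximal tubule membrane, at 360.0 ± 65.7 CPM per kb (SD, n = 3). Its CPM in the 3 kidneys were 761.7, 966 and 1086. Slc22a18, an imprinted gene of uncertain substrate, followed at 317 ± 26.1 CPM per kb, with 568, 636 and 657 CPM. Slc22a7, an organic anion transporter, was at 215 ± 10.9 CPM per kb, with 530.4, 494 and 537 CPM. The ranges of Slc22a12 and Slc22a18 overlapped, whereas Slc22a7 was lower than both in every kidney. Slc22a8 was at 157 ± 18.7 CPM per kb, Slco1a6 at 125 ± 14.8, Slc22a6 at 104 ± 3.81, the carnitine transporter Slc22a5 at 103 ± 8.43, Slc22a13 at 102 ± 4.999 and the cation transporter Slc22a2 at 99.5 ± 3.32. Slc22a6, Slc22a5, Slc22a13 and Slc22a2 did not differ beyond their spread. Slco1a6 was the only Slco gene with an untreated kidney mean of 100 CPM or more.

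In untreated liver, Slco1b2, the main uptake transporter of hepatocytes for bile acids and bilirubin, was at 302 ± 47.0 CPM per kb (SD, n = 3), with 921, 819 and 1085 CPM in the 3 livers. Slc22a26, a rodent anion transporter gene, was at 169 ± 39.2 CPM per kb, with 348, 372 and 229 CPM. Slc22a18 was at 136 ± 23.0 CPM per kb, with 129, 174 and 134 CPM. Every liver was higher in Slco1b2 per kb than in Slc22a26 or Slc22a18, whose ranges overlapped. Slc22a30 (56.3 ± 16.6 CPM per kb), Slco1a1 (50.9 ± 24.6) and Slco2b1 (49.0 ± 4.80) came next and could not be ordered against their spread. Slco1a1, an uptake transporter of conjugated steroids, was at 221, 217 and 73.9 CPM, lower in replicate 3 than in the others.

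Most members differed between untreated kidney and liver. Of 34 members that passed the filter on low counts in the fit over all 68 libraries, 29 passed the test (edgeR quasi-likelihood, Benjamini-Hochberg adjusted p under 0.05), 19 higher in kidney and 10 higher in liver. Over all genes tested, 56.4% passed, and the median log2 difference, kidney minus liver, was 2.84 for the members and 0.15 for all genes. Slc22a8 had 41074 reads in the 3 kidneys and 0 in the 3 livers, so its level was at least 7336-fold higher in kidney, taking 3 reads over the group as the floor. Slc22a6 had 27603 and 0 reads (at least 4930-fold), Slc22a13, a carrier of nicotinate and urate, 13704 and 0 (at least 2447-fold), and Slc22a22, a prostaglandin-specific anion transporter, 2392 and 0 (at least 427-fold). Slc22a12 had 53939 reads in kidney and 1 in liver, a ratio of 28900 with a 95% counting interval from 5187 to 1141500. Slc22a19 had 22654 and 1, Slco1a6 had 31681 and 3, and Slc22a2 had 16510 and 5. The 7 non-proximal tubule markers summed to 0 to 9.451 CPM in the 17 livers.

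In the other direction, Slco1b2 was at 1490 ± 232 CPM in liver and 3.22 ± 5.24 CPM in kidney (SD, n = 3, common scale), a log2 difference, kidney minus liver, of -8.85 ± 2.32 (SE, edgeR adjusted p = 0.000974). Slco1a1 differed by -8.78 ± 1.81 (adjusted p = 4.24e-05), Slco1a4 by -5.83 ± 1.16 (adjusted p = 2.67e-05), Slc22a27 by -4.03 ± 0.82 (adjusted p = 3.77e-05), Slc22a30 by -3.98 ± 1.10 (adjusted p = 0.00171), Slc22a26 by -3.38 ± 1.31 (adjusted p = 0.0248) and Slco2b1 by -3.38 ± 0.24 (adjusted p = 1.77e-17), all from edgeR. These SEs and p-values rest on the spread within all 20 groups of the 68 libraries, hearts and lungs included. They do not measure the spread of the untreated kidneys and livers alone. Slco1a4, for example, was at 2.91 ± 0.306 CPM in kidney and 166 ± 9.56 CPM in liver (SD, n = 3, common scale). Kidney untreated replicate 1 carried 1947 CPM of hepatocyte markers, against 205.9 and 180.3 CPM in the other untreated kidneys, and it also held most of the kidney reads of Slco1a1 (1.84 CPM against 0.147 and 0.0576). The part of this in the kidney levels of liver genes was not tested. Without kidney untreated replicate 2 or 3, Slc22a26 no longer passed (adjusted p = 0.0657 and 0.0901, edgeR).

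The direction of Slc22a23 between kidney and liver depended on the scaling. TMM scaling over all organs lowered kidney minus liver by 0.85 on the log2 scale for every gene. Slc22a23, an orphan member, was at 154 CPM in kidney and 88.5 CPM in liver by library totals and at 129 and 136 CPM on the common scale (edgeR adjusted p = 0.801). In a fit to the 34 kidney and liver libraries alone, an analysis added after the data were seen, Slc22a18 passed as higher in kidney (1.17 ± 0.17, SE, edgeR adjusted p = 6.87e-07), against 1.22 ± 0.76 (adjusted p = 0.171) in the fit to all libraries. With limma voom over all libraries Slc22a18 also passed (1.30, adjusted p = 2.22e-05).

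In untreated lung the 2 members highest per kb were Slco genes. Slco2a1, which takes up prostaglandins for their degradation, led with 31.9 ± 0.952 CPM per kb (SD, n = 3) and 676, 686 and 643 CPM in the 3 untreated lungs. Slco3a1 followed at 13.4 ± 0.808 CPM per kb, with 188, 168 and 172 CPM. Of the 34 members, 21 passed the test between untreated lung and heart (8 higher in lung, 13 higher in heart), against 66.3% of all genes. Slco2a1 was higher in lung by a log2 difference of 4.47 ± 0.26 (SE, edgeR adjusted p = 3.27e-21) and Slco4c1, a transporter of thyroid hormone and digoxin, by 7.35 ± 0.60 (adjusted p = 3.26e-15). Slco3a1 did not pass (-0.21 ± 0.16, edgeR adjusted p = 0.254). The scaling over all organs lowered lung minus heart by 0.784 in log2, more than this difference, so its direction is not settled. The counts of 8 and 13 members rest on the same scaling. Slco1a5 was low in lung (4.77, 4.01 and 6.08 CPM) and had no read in untreated kidney or liver.

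The 13 members that passed as higher in heart included the 6 liver-type genes Slco1b2, Slco1a1, Slco1a4, Slc22a26, Slc22a27 and Slc22a30. Slco1b2 had an untreated heart mean of 19.2 ± 15.3 CPM per kb (SD, n = 3). It was at 135, 7.64 and 114 CPM in the untreated hearts, and the hepatocyte marker sums of the same hearts were 16670, 1256 and 14310 CPM. The sum of the 6 liver-type transporters was 13.0% of its liver median in untreated heart replicate 1, where the hepatocyte marker sum was 12.9% of its own liver median. In untreated heart replicate 3 these shares were 11.6% and 11.1%, and in lung Egf 6 h replicate 3 they were 15.7% and 22.2%. For 7 kidney-type transporters (Slc22a6, Slc22a8, Slc22a12, Slc22a13, Slc22a2, Slc22a19 and Slco1a6) and the tubule markers, the shares were 14.6% and 12.9% in heart vehicle 2 h replicate 1 and 5.12% and 4.78% in untreated heart replicate 2. The part of this foreign RNA in the difference between lung and heart was not tested. Without the 5 libraries named above, the only untreated heart is replicate 2, which itself carried 1256 CPM of hepatocyte markers and 770.8 CPM of the 7 other tubule markers, so that fit is not free of foreign RNA. Its single untreated heart is taken to vary like the other groups. In that fit Slco1b2 differed by -6.87, lung minus heart, against -10.33 ± 2.62 (SE, edgeR adjusted p = 0.000589) with the 5 libraries.

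**Figure D2:**
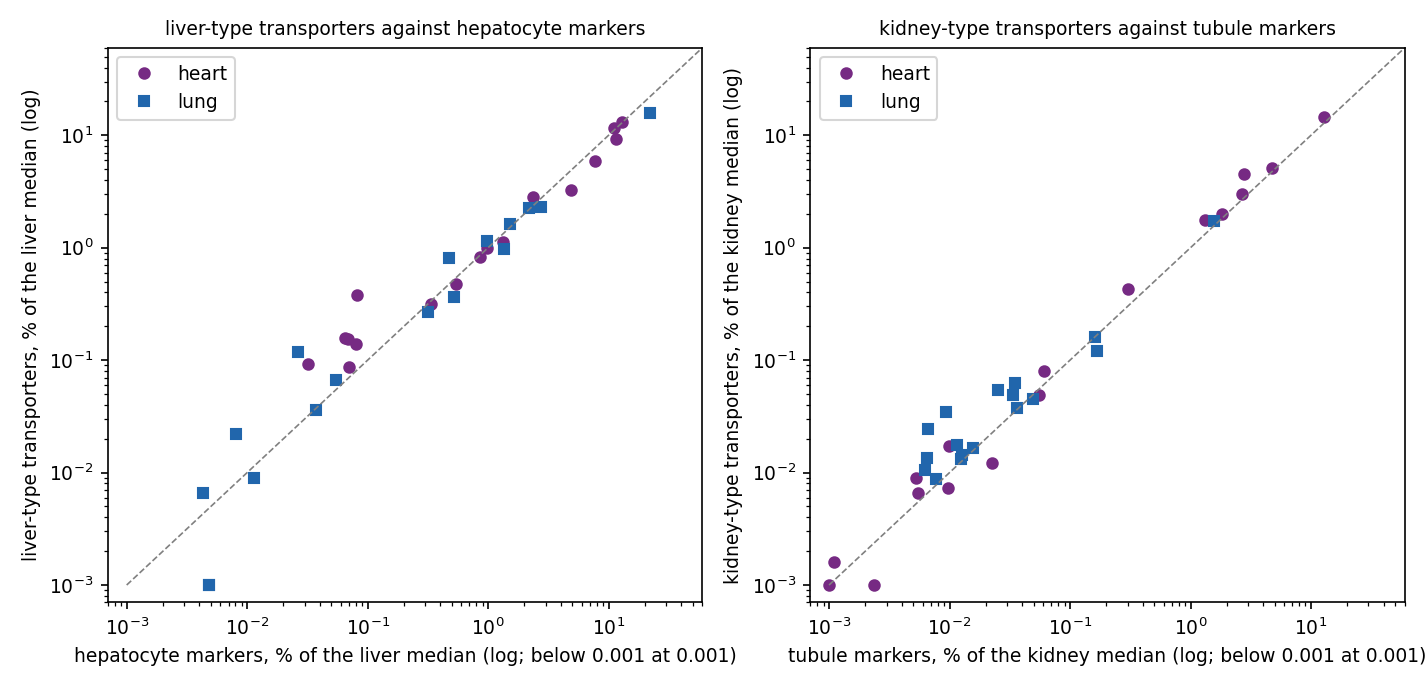
Sum of 6 liver-type (left) and 7 kidney-type (right) transporters against the sum of hepatocyte or kidney tubule markers in the 17 heart and 17 lung libraries, each as a percentage of the median in liver or kidney (log axes, values below 0.001 drawn at 0.001, dashed line at equal percentages). Points lie close to the line over the upper part of the range, up to 15.7% for liver-type and 14.6% for kidney-type transporters.

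Little foreign RNA was found in 3 of the 17 hearts, Egf 2 h replicates 2 and 4 and vehicle 2 h replicate 3, so all were injected and no untreated heart was among them. In these hearts, with at most 150 CPM of hepatocyte markers and at most 60 CPM of all tubule markers, limits chosen after the values were seen, 11 members were at 1 CPM or more in each. Slco3a1 was at 17.1 to 19.7 CPM per kb and Slc22a5, which brings in carnitine for fatty acid oxidation, at 13.8 to 19.7 CPM per kb, and their ranges overlapped. Their levels were 129 to 150.5 CPM and 38.2 to 53.8 CPM. Slco2b1 was at 10.4 to 16.8 CPM, Slc22a23 at 11.2 to 15.4 CPM and the cation transporter Slc22a3 at 9.98 to 10.6 CPM. Slco1b2 was at 0.194 to 0.880 CPM there, against up to 135 CPM over all hearts. The orphan member Slco5a1 was at 4.80 to 5.53 CPM in these hearts and was higher in untreated heart than lung (lung minus heart -3.42 ± 0.44, SE, edgeR adjusted p = 1.09e-08).

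No kidney member passed the test between Egf and vehicle. At 2 h, 0 of 32 members tested passed (edgeR), against 0.256% of all genes, and 2 had an unadjusted p under 0.05. At 6 h, 0 of 32 passed, against 0% of all genes, and 6 had an unadjusted p under 0.05. Over all 15654 genes tested, 1224 at 2 h and 986 at 6 h had an unadjusted p under 0.05. DESeq2 called 0 members at 2 h and 1 at 6 h, and limma voom with quality weights called 0 and 4. The median log2 change, Egf minus vehicle, was 0.04 over the members and -0.01 over all genes at 2 h, and -0.11 and 0.02 at 6 h. Of the 24 members with at least 10 CPM in either group, 23 at 2 h and 20 at 6 h had a 95% interval that lay within a 2-fold change either way. For the proximal tubule anion and urate transporters Slc22a6, Slc22a8 and Slc22a12, the mean at 6 h was 484 ± 55.8 CPM with Egf (SD, n = 4) and 528 ± 33.2 CPM with vehicle (n = 3) for Slc22a6, 682 ± 134 and 792 ± 54.5 CPM for Slc22a8, and 731 ± 138 and 881 ± 126 CPM for Slc22a12. The groups overlapped for each.

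**Figure D3:**
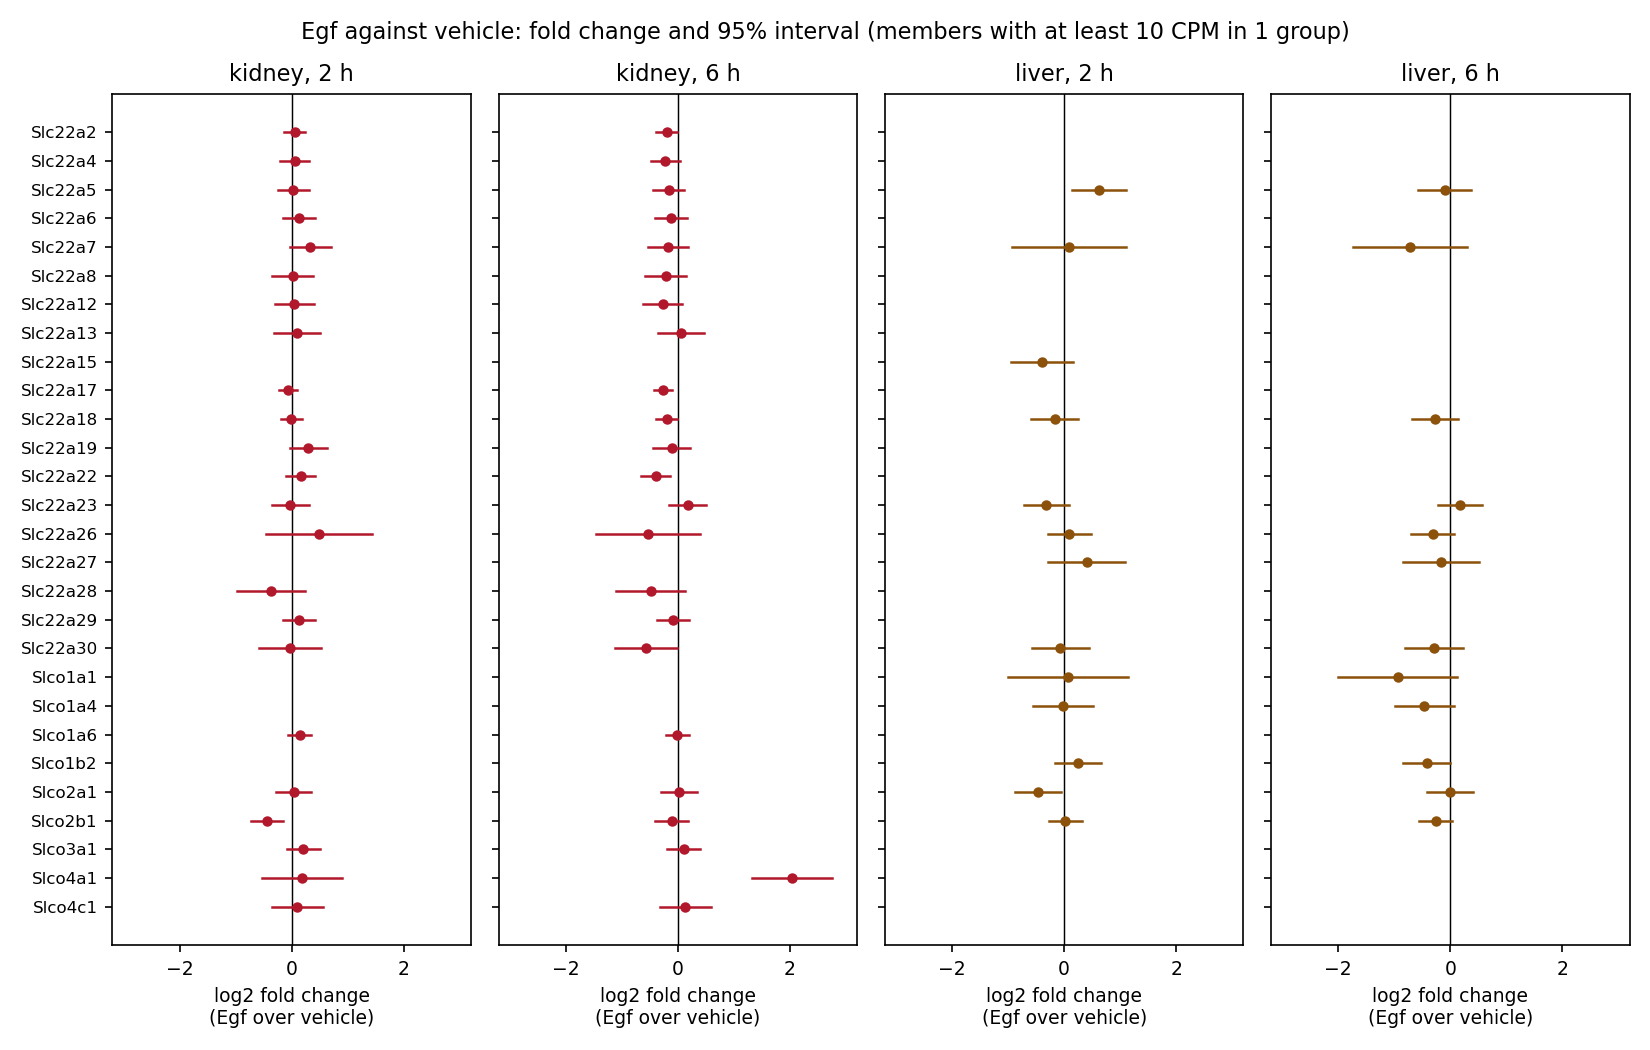
Log2 fold change of Egf over vehicle with its 95% interval (bars) in kidney and liver at 2 h and 6 h, for members reported by name with at least 10 CPM in 1 of the groups compared (n = 4 Egf and 3 vehicle libraries). Kidney estimates run from -0.44 to 0.49 at 2 h and from -0.57 to 2.03 (Slco4a1) at 6 h, and no member shown passed the test.

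Slco4a1, an organic anion transporter that carries thyroid hormones, had the smallest p and the largest log2 change of the members shown for kidney at 6 h, and it did not pass. Its CPM were 7.75, 11.5 and 11.5 in the vehicle kidneys and 26.8, 29.1, 29.1 and 82.9 in the Egf kidneys at 6 h. The groups did not overlap, and replicate 4 of the Egf group was far above the other 3. The means were 10.2 ± 2.16 CPM (SD, n = 3) and 42.0 ± 27.3 CPM (n = 4), a log2 change of 2.03 ± 0.34 (SE, 95% interval 1.31 to 2.76, edgeR adjusted p = 0.241). At 2 h the values were 8.11, 10.6 and 7.79 CPM with vehicle and 10.8, 9.84, 9.46 and 9.91 CPM with Egf, a log2 change of 0.18 ± 0.34 (adjusted p = 0.989, edgeR). The log2 change at 6 h exceeded that at 2 h by 1.85 ± 0.47 (SE, edgeR adjusted p = 0.377). The untreated kidneys were at 21.1, 18.5 and 27.0 CPM, above every vehicle kidney at both times. The Egf kidneys at 6 h overlapped the untreated range only through replicate 1. Slco4a1 passed at 6 h with DESeq2 (adjusted p = 1.06e-05), with limma voom (adjusted p = 0.00682) and with edgeR when Egf replicate 4 (log2 change 1.46, adjusted p = 0.00747) or Egf replicate 1 (2.20, adjusted p = 0.0359) was left out. Over its 16 alternatives the change ran from 1.46 to 2.20 and the adjusted p from 1.06e-05 to 0.893. In the main test of kidney at 6 h no gene of 15654 passed, whereas DESeq2 called 37 and limma voom 810.

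Slc22a17, the receptor for the siderophore carrier lipocalin, had the second smallest p in kidney at 6 h and did not pass. Vehicle kidneys were at 39.6, 43.0 and 40.5 CPM and Egf kidneys at 33.6, 35.9, 33.5 and 33.4 CPM, so the groups did not overlap. The log2 change was -0.27 ± 0.08 (SE, edgeR adjusted p = 0.5004). Its untreated kidneys were at 35.1, 33.9 and 36.0 CPM, also below every vehicle kidney at 6 h. At 2 h the smallest p belonged to Slco2b1, a broad organic anion transporter, at 29.0, 30.6 and 21.7 CPM with vehicle and 20.02, 17.2, 25.1 and 17.6 CPM with Egf. The groups overlapped, and the log2 change of -0.44 ± 0.14 (SE) did not pass (edgeR adjusted p = 0.292). Slco1a1 came next, with 0.392, 2.04 and 0.233 CPM with vehicle and 0.0681, 0, 0.134 and 0.130 CPM with Egf (-3.30 ± 1.17, edgeR adjusted p = 0.404). It rested on 43 and 5 reads, and vehicle replicate 2, its highest library, carried 1020 CPM of hepatocyte markers against 133.1 to 325.0 CPM in the other 6 kidneys. The part of these markers in the value was not tested.

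**Figure D4:**
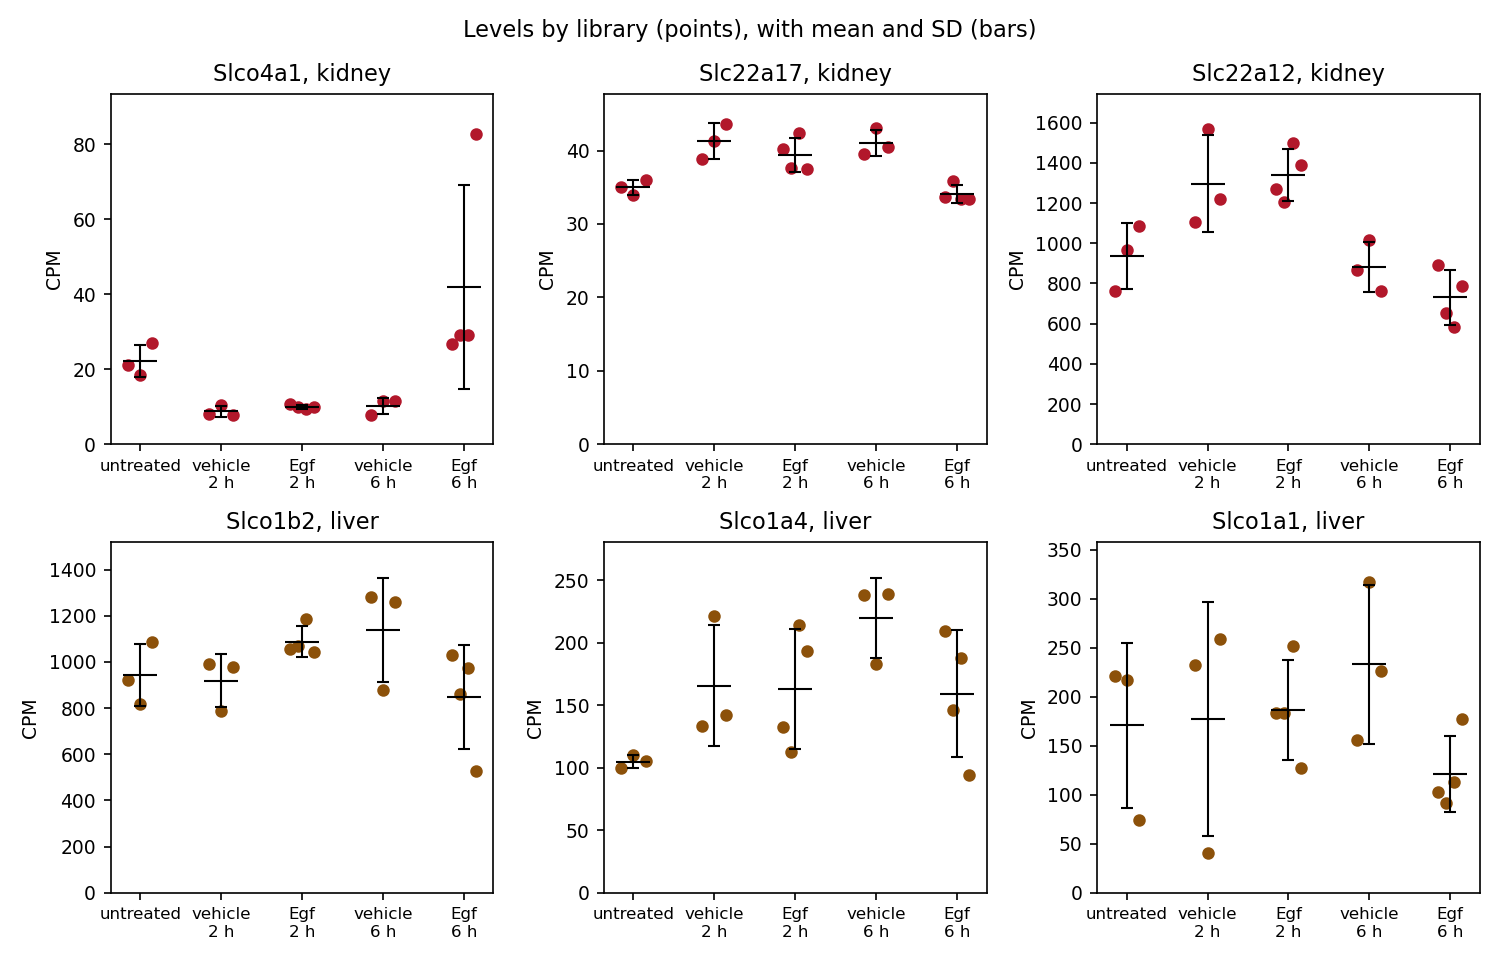
CPM of 3 kidney and 3 liver members in each library by group (points), with the group mean and SD (black). Slco4a1 in kidney is higher in untreated and Egf 6 h libraries than in the other groups, and Slco1a4 in liver is at 99.8 to 110.1 CPM in untreated mice and at 183 to 239 CPM in vehicle mice at 6 h.

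The liver responded to Egf at 2 h in 3.92% of all genes tested, and none of its 20 tested members passed (edgeR, with 2 at an unadjusted p under 0.05). At 6 h, 0 of 20 passed, against 0.0883% of all genes, with 1 at an unadjusted p under 0.05. Over all 13592 genes tested, 2001 at 2 h and 1160 at 6 h had an unadjusted p under 0.05. DESeq2 called 0 members at both times, and limma voom called 1 at 2 h and 0 at 6 h. The median log2 change was 0.05 over the members and -0.02 over all genes at 2 h. At 6 h it was -0.30 and 0.01, and 18 of 20 members had a change below 0. The share of all genes below 0 is not given here, and members measured in the same livers are not separate evidence. Egf replicate 4 at 6 h had the lowest Slc22 sum (1589 CPM) and Slco sum (1692 CPM) of all livers (common scale). Intervals within a 2-fold change either way were found for 10 of 14 members with at least 10 CPM at 2 h and 11 of 13 at 6 h.

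Slc22a5, the carnitine transporter, had the smallest p in liver at 2 h. It was at 24.4, 31.1 and 29.1 CPM with vehicle and 39.3, 58.6, 48.1 and 27.6 CPM with Egf, so 3 of 4 Egf livers were above every vehicle liver. The log2 change was 0.62 ± 0.23 (SE) and did not pass (edgeR adjusted p = 0.173). Slco2a1 was at 128, 107 and 139.6 CPM with vehicle and 82.1, 95.7, 112 and 72.6 CPM with Egf, with overlap through replicate 3 (-0.46 ± 0.20, edgeR adjusted p = 0.258). At 6 h, Slco1b2 was at 1279.8, 879 and 1259 CPM with vehicle and 1032, 861, 972 and 528 CPM with Egf, and the groups overlapped. Its log2 change of -0.43 ± 0.20 (SE) did not pass (edgeR adjusted p = 0.573). Slc22a5 and its copy Slc22a21 share sequence, as given above.

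Vehicle was compared with untreated mice as a background without Egf. In this comparison the injection, any effect of anaesthesia and the hour of harvest cannot be told apart. Between vehicle mice at 6 h and 2 h, time after injection and hour of harvest cannot be told apart either. In kidney, 0 of 32 members passed at 2 h (0.0256% of all genes) and 0 at 6 h (0.211%), with 5 and 4 at an unadjusted p under 0.05 (edgeR). Over all 15654 genes tested, 2130 at 2 h and 1113 at 6 h had an unadjusted p under 0.05. DESeq2 called 1 and 0 members there, and limma voom 7 and 5. Slco4a1 had the smallest p at both times, with a log2 change, vehicle minus untreated, of -1.33 ± 0.35 at 2 h (SE, edgeR adjusted p = 0.209) and -1.12 ± 0.35 at 6 h (edgeR adjusted p = 0.349). The vehicle and untreated kidneys did not overlap at either time, and the Egf and vehicle comparisons of Slco4a1 share the vehicle libraries. Between vehicle kidneys at 6 h and 2 h, 0 of 32 passed (0.179% of all genes, 6 at an unadjusted p under 0.05), while DESeq2 called 0 and limma voom 5. Of all genes, 1149 had an unadjusted p under 0.05 there, and limma voom called 1200. For the change of the Egf effect over time, 0 of 32 passed (0.0192%, 3 at an unadjusted p under 0.05), while DESeq2 and limma voom called 1 each. Of all genes, 1021 had an unadjusted p under 0.05 there, and DESeq2 called 51 and limma voom 254.

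In liver, 0 of 20 members passed between vehicle and untreated mice at 2 h (0.155% of all genes, 4 at an unadjusted p under 0.05) and at 6 h (0.67%, 2 at an unadjusted p under 0.05, edgeR). Over all 13592 genes tested, 2256 at 2 h and 1745 at 6 h had an unadjusted p under 0.05. DESeq2 called 0 and 1, and limma voom 1 and 1. Slco1a4, an uptake transporter of bile acids and cardiac glycosides, came nearest to the threshold of any member in these comparisons. It was at 99.8, 110.1 and 105 CPM in untreated livers, 134, 221 and 142 CPM in vehicle livers at 2 h and 238, 183 and 239 CPM at 6 h. Every vehicle liver was above every untreated liver. At 6 h the log2 change was 1.07 ± 0.27 (SE, edgeR adjusted p = 0.0896), and the Egf livers at 6 h were at 209, 146, 188 and 93.9 CPM. It passed with DESeq2 (adjusted p = 0.0116), with limma voom (adjusted p = 0.00416) and in an edgeR fit to the groups compared alone (adjusted p = 0.0457). Between vehicle livers at 6 h and 2 h, 0 of 20 passed (1.55% of all genes, 3 at an unadjusted p under 0.05), with 0 by DESeq2 and 1 by limma voom. Of all genes, 1760 had an unadjusted p under 0.05 there, and limma voom called 1073. For the change of the Egf effect over time, 0 of 20 passed (1.03%, 4 at an unadjusted p under 0.05), with 0 by DESeq2 and 0 by limma voom. Of all genes, 1913 had an unadjusted p under 0.05 there.

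In lung, 0 of 26 members passed at 2 h (0.84% of all genes) and at 6 h (0%) after Egf, with 2 at an unadjusted p under 0.05 at each time (edgeR). Over all 16778 genes tested, 1423 at 2 h and 907 at 6 h had an unadjusted p under 0.05. DESeq2 called 0 at both times, and limma voom 1 and 0. Slc22a3 had the smallest p at 2 h, with 10.1, 8.51 and 15.2 CPM in vehicle lungs and 9.60, 6.24, 4.47 and 7.47 CPM in Egf lungs (-0.70 ± 0.26, edgeR adjusted p = 0.364). Slco4c1 was at 55.4, 52.7 and 55.5 CPM with vehicle and 66.4, 64.8, 74.0 and 71.4 CPM with Egf, without overlap (0.34 ± 0.14, edgeR adjusted p = 0.461). At 6 h, Slc22a17 was at 12.9, 16.3 and 14.4 CPM with vehicle and 11.9, 11.8, 10.4 and 10.9 CPM with Egf (-0.37 ± 0.14, edgeR adjusted p = 0.902). Slc22a23 was at 103, 83.9 and 105 CPM and 123, 98.7, 128 and 120.5 CPM (0.27 ± 0.13, edgeR adjusted p = 0.919). The other lung comparisons gave 0 of 26 as well: vehicle against untreated at 2 h (0.0656% of all genes) and 6 h (0.101%), vehicle at 6 h against 2 h (0.441%) and the change of the Egf effect (0.0417%), with 2, 4, 2 and 1 members at an unadjusted p under 0.05. For all genes tested these counts were 2047, 1645, 1605 and 962. DESeq2 called 0 in each, and limma voom 0, 0, 1 and 0.

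In heart, 0 of 30 members passed at 2 h (0.211% of all genes, 0 at an unadjusted p under 0.05) and at 6 h (0.0128%, 1 at an unadjusted p under 0.05) after Egf (edgeR). Over all 15618 genes tested, 1193 at 2 h and 1647 at 6 h had an unadjusted p under 0.05. DESeq2 called 0 at both times, and limma voom 0 and 1. Slco1b2 had the smallest p at 2 h, with 0.255, 0.0768 and 0.880 CPM in vehicle hearts and 9.54, 0.194, 45.7 and 0.741 CPM in Egf hearts (5.04 ± 2.33, edgeR adjusted p = 0.635). Egf replicates 1 and 3, the highest 2 hearts, carried 1115 and 10010 CPM of hepatocyte markers. The part of these markers in the value was not tested. Slco3a1 was at 112, 119 and 140.1 CPM with vehicle and 165, 129, 145 and 150.5 CPM with Egf (0.25 ± 0.12, edgeR adjusted p = 0.635). At 6 h, Slco2a1 was at 10.3, 8.80 and 7.40 CPM with vehicle and 20.3, 13.4, 18.3 and 12.2 CPM with Egf, without overlap (0.86 ± 0.30, edgeR adjusted p = 0.466). Slc22a17 was at 6.50, 4.23 and 3.50 CPM and 4.29, 2.89, 1.69 and 3.87 CPM (-0.57 ± 0.32, edgeR adjusted p = 0.498). Vehicle against untreated gave 0 of 30 at 2 h (0.0128% of all genes) and 6 h (0.0192%), vehicle at 6 h against 2 h gave 0 (0.0384%) and the change of the Egf effect gave 0 (0.0128%), with 8, 1, 1 and 0 members at an unadjusted p under 0.05. For all genes tested these counts were 2532, 1456, 834 and 662. DESeq2 called 3 members at 2 h (Slco1b2, Slco1a1 and Slc22a27, all lower in vehicle than in untreated hearts) and 0 in the others, and limma voom called 0, 2, 0 and 0. Those 3 are liver-type genes, and the untreated hearts had the hepatocyte marker sums given above, whose part in these calls was not tested.

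A test of a difference in Egf effect among heart, lung, kidney and liver used the fit over all libraries. None of 34 members passed at 2 h, against 2.19% of all genes, and none at 6 h, against 0.048%, with 6 and 2 at an unadjusted p under 0.05 (edgeR). Over all 18736 genes tested, 2332 at 2 h and 1124 at 6 h had an unadjusted p under 0.05. DESeq2 called 0 at both times, and limma voom called 4 at 2 h and 1 at 6 h.

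Other genes of the transport system were taken from 3 lists: efflux and other partner transporters (22 genes), genes for the ion gradients and scaffolds of uptake (12, of which 10 were matched in the table), and transcription factors and hormone receptors known to control these transporters (26). In kidney after Egf at 2 h, 1 of 55 tested genes passed, against 0.256% of all genes. It was Hnf4g, a nuclear receptor of tubule and gut epithelium. It was at 9.68 ± 1.43 CPM with Egf (SD, n = 4) and 5.25 ± 0.841 CPM with vehicle (n = 3), a log2 change of 0.88 ± 0.14 (SE, edgeR adjusted p = 0.0157). No listed gene passed in kidney at 6 h or in the other kidney comparisons, and none passed in lung (50 tested) or heart (56 tested). In liver at 2 h, 8 of 55 passed, 2 higher and 6 lower with Egf, against 3.92% of all genes. Among the 26 regulators 6 passed. Ppargc1a, a coactivator of fasting metabolism, was at 2.00 ± 0.459 CPM with Egf and 8.37 ± 2.72 CPM with vehicle (-2.06 ± 0.27, edgeR adjusted p = 0.000135). Foxa2, a hepatocyte transcription factor, was at 63.5 ± 10.2 and 34.3 ± 2.18 CPM (0.89 ± 0.15, edgeR adjusted p = 0.00158), and Cebpb, an acute-phase factor, at 101 ± 17.7 and 43.3 ± 6.78 CPM (1.22 ± 0.21, edgeR adjusted p = 0.00191). Ppara and Stat5a, a nuclear receptor of fatty acid oxidation and a hormone-activated factor, were also lower with Egf.

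Of the liver partner genes, Abcc2, which exports conjugated anions into bile, was at 150 ± 10.2 CPM with Egf (SD, n = 4) and 265 ± 36.5 CPM with vehicle (n = 3) at 2 h (-0.82 ± 0.16, edgeR adjusted p = 0.00534). Atp1b1, a subunit of the sodium pump, was at 28.7 ± 4.45 and 48.2 ± 8.09 CPM (-0.75 ± 0.14, edgeR adjusted p = 0.00398). The groups did not overlap for either. Each of the 3 lists had 0 of its tested genes passing in liver at 6 h after Egf. The difference between the Egf effects at 6 h and 2 h passed for 4 genes, Atp1b1 and Ppargc1a upward and Foxa2 and Cebpb downward. Without Egf, Stat5b and Nr0b2, a corepressor induced by bile acids, were lower in vehicle livers at 6 h than in untreated livers (-0.78 ± 0.14 and -1.45 ± 0.31, edgeR adjusted p = 0.00949 and 0.0328). Between vehicle livers at 6 h and 2 h, Hnf4a, a master factor of hepatocytes and tubule cells, was lower (-0.80 ± 0.15, edgeR adjusted p = 0.0111) and Cebpb higher (0.93 ± 0.22, adjusted p = 0.0419).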

How the data were processed

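Polyadenylated RNA of 68 whole-organ libraries was sequenced without strand information, per the labels' protocols. The authors deposited raw counts per gene, with HISAT2 2.0.5, featureCounts 1.5.0-p3 and mm39 named in the submitters' processing notes. How reads were assigned, and from which annotation, is not given in the sources used here. Library totals were 13271813 to 24972005 counted reads.

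From the counts, each organ's 17 libraries were fitted with edgeR 4.0.16 in R 4.3.3 (TMM scaling, filterByExpr, robust quasi-likelihood F test) with 5 groups, and all 68 libraries in a second fit for comparisons between organs. P-values were adjusted over all genes tested (Benjamini-Hochberg, threshold 0.05). CPM used TMM-scaled library sizes, of the organ's own fit unless the common scale is named, and CPM per kb used the common scale and the gene length in the table. The steps were tested on simulated data for Egf against vehicle at 2 h. In kidney, 31.3% of 1.5-fold, 59.7% of 2-fold and 95.5% of 4-fold changes were called. In liver the shares were 8.96%, 64.2% and 93.9%. Most changes of 1.5-fold would thus be missed. Counting intervals have a 95% level and the floor is 3 counts, and both cover counting error only.

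Alternatives were RLE scaling, unscaled totals, no filter, DESeq2 1.42.0, limma 3.58.1 voom with quality weights, only the groups compared, a replicate block, marker covariates, leaving out libraries that carry another organ's RNA, and leaving out each library. Unscaled totals were applied to untreated levels only and not to fold changes. Values per library are given for the 4 members highest per kb in untreated kidney and liver, the 2 highest in lung and heart, members that passed, and, where none passed after Egf, the 2 with the smallest p. From the lists of other genes, up to 3 that passed were given per comparison. Others named were chosen after their values were seen. Some genes that these rules name are not reported here by name or value, though counts of genes include them. The members and lists were chosen with earlier results of these data known. Shared sequence was counted in GENCODE transcripts, and promoters came from RefSeq.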

Additional observations from a re-analysis of the deposited data

Results flagged for a closer look

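Among 44 groups of 4 Egf libraries of the named members, 3 held a library far from the other 3, and chance flags about 1 in 20 groups. In kidney at 6 h, Slco4a1 was at 82.9 CPM in Egf replicate 4 and at 26.8 to 29.1 CPM in the others, and Slc22a17 was at 35.9 CPM in Egf replicate 2 and at 33.4 to 33.6 CPM in the others. In heart at 2 h, Slco2a1 was at 20.8 CPM in Egf replicate 3 and at 9.14 to 10.9 CPM in the others. That heart carried 10010 CPM of hepatocyte markers, whose part in this value was not tested.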

How the results depend on the processing

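Over the 26 comparisons of injected or untreated groups, where no member passed, 364 of 388 alternatives also had 0 members passing and 24 had some. No named fold change changed sign over its alternatives, none of which used unscaled totals. By unscaled totals Slc22a23 changed direction between kidney and liver, as given above. With DESeq2, 1 member passed in kidney for Egf at 6 h, for vehicle against untreated at 2 h and for the change of the Egf effect, 1 in liver for vehicle against untreated at 6 h, and 3 in heart for vehicle against untreated at 2 h. With limma voom, 4 passed in kidney for Egf at 6 h, 7 and 5 for vehicle against untreated at 2 h and 6 h, 5 between vehicle times and 1 for the change of the Egf effect. It also gave 1 in liver for Egf at 2 h, for vehicle against untreated at each time and between vehicle times, 1 in lung for Egf at 2 h and between vehicle times, 1 in heart for Egf at 6 h, 2 in heart for vehicle against untreated at 6 h, and 4 and 1 for the Egf effect among organs at 2 h and 6 h. With only the groups compared, 1 passed in liver for vehicle against untreated at 6 h. Leaving out 1 library gave 0 to 1 members in kidney for Egf at 6 h. Kidney against liver gave 28 to 31 members, including a fit to those organs alone that was chosen after seeing the data. Lung against heart gave 19 to 29. In the main fit, 29 and 21 members passed, as did 56.4% and 66.3% of all genes. The shares of all genes under these alternatives are not given here. The cause of these shifts was not tested.

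The labels do not say what a replicate number marks. Deviations of same-numbered Egf and vehicle libraries correlated above 0.1 in 7 of 24 pairs (-0.661 to 0.666). Those of same-numbered libraries of 1 treatment and time in a pair of organs did so in 45 of 102 pairs (-0.426 to 0.744). In vehicle mice at 6 h, all 3 pairs were above 0.1 for kidney with liver (0.198, 0.445 and 0.508) and for lung with heart (0.17, 0.161 and 0.192). In untreated mice, the group compared between organs, they were 0.027, -0.114 and -0.303 for kidney with liver and 0.174, -0.13 and -0.112 for lung with heart. Neither untreated comparison between organs, nor any comparison of Egf with vehicle in an organ, had all its pairs above 0.1, so the numbers were not taken to pair the samples. With the replicate block, 1 member passed in liver for Egf at 2 h, Slc22a5 (0.73, edgeR adjusted p = 0.0365), and 764 genes passed against 533. With the block, kidney against liver kept a count of 29 and lung against heart 21, and the other comparisons had 0 members.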
